A study of Mus musculus with 21 samples.

Results

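Jchain, Mzb1, Pigr, Cd79a, Cd79b, Ms4a1, Tnfrsf17 and Vpreb3, 8 of the 23238 gene symbols counted, were followed through the lungs of C57BL/6 mice that had received propylene glycol, vitamin E acetate or a control fluid. They were taken by symbol, as genes of B cells, of antibody-secreting plasma cells and of IgA transport across epithelium, and all 8 were among the 14727 genes tested after the filter on low counts. There were 7 groups of 3 libraries: saline as the control for propylene glycol (PG), PG at 826 and at 1100, 10% ethanol as the control for vitamin E acetate (VEA), and VEA at 3.12, 6.25 and 12.5. The unit of these doses differs between sources, being mg/kg in the labels and mg/mL in the series description, so only the figures are used as group names. Every mouse received 50 µL into the trachea once a day for 14 days and was killed on day 15. RNA came from lung tissue taken after the airways had been washed out (bronchoalveolar lavage). Age and sex are not given, and neither is the fluid that carried VEA, apart from its control being 10% ethanol. The number in each label was read as that of 1 mouse. The labels do not say that the samples of a group were separate cultures or cages, so p-values measure only the spread between these samples.

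B cells sense antigen through a surface antibody that signals through the paired proteins CD79A and CD79B. Once activated, some become plasma cells, which fold and secrete antibody in bulk. In mucosal tissue the joining chain, encoded by Jchain, links IgA or IgM units into polymers, and the polymeric immunoglobulin receptor, encoded by Pigr, carries these polymers through epithelial cells into the airway lumen, where part of the receptor stays attached as secretory component. Genes of the antibody chains themselves were not analysed here.

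Libraries were made from 500 ng of total RNA with a Lexogen QuantSeq kit, which reads the 3′ end of transcripts, so each level is a CPM value (counts adjusted for library size and not for gene length) and genes are not compared with each other by level. Totals ran from 8778028 to 11783151 counts per library, with 14843 to 15992 genes detected. Single genes among the 8 therefore rest on few counts, from 42 to 729 for Jchain and from 86 to 753 for Pigr, but only from 20 to 110 for Cd79a and from 0 to 14 for Tnfrsf17. The 3 low-detection libraries, those with the fewest genes, were mouse 65 (VEA 6.25), mouse 8 (saline) and mouse 13 (ethanol). Values with them left out are given where they alter a call among the 8 genes. None of 7 lung markers was at 0 in a whole group. Differences were tested with edgeR's quasi-likelihood test with Benjamini-Hochberg adjustment over all 14727 genes, and a gene is said to rise or fall where the adjusted p was below 0.05. Differences are log2 fold changes with their standard error (SE).

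The 3 genes with a call in any comparison were Vpreb3, Jchain and Pigr. The 250 bases before the RefSeq start of each are shown for that reason: Vpreb3 passed the test in PG against saline, and Jchain and Pigr in VEA against ethanol. The table of RefSeq promoters used here matched 5 of the 8 genes. All are on GRCm38.p6, read 5′ to 3′ on the gene's strand, at chr10:75948050-75948299 (plus strand) for Vpreb3, chr5:88527898-88528147 (minus strand) for Jchain and chr1:130826434-130826683 (plus strand) for Pigr. Capitals mark the matches found.
Vpreb3: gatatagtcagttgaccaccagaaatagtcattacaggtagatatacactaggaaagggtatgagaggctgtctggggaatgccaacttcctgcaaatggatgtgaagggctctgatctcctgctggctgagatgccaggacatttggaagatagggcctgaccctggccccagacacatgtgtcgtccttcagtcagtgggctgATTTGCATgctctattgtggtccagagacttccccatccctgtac
Jchain: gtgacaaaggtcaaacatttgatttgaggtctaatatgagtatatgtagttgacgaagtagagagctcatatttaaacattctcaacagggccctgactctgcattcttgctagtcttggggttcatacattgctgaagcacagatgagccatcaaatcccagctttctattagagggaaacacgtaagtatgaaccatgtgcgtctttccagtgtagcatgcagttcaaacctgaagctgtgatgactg
Pigr: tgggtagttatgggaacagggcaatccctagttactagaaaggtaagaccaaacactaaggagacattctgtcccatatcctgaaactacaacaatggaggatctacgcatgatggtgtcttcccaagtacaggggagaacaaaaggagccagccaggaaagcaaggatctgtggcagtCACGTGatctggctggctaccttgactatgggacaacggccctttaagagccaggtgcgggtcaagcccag
The motifs searched, on both strands, were the octamer of B cell promoters (ATGCAAAT), an E-box (CACGTG), an interferon response core (GAAA, any pair of bases, GAAA), a STAT core (TTCNNNGAA) and the TATA box (TATAAA). The window of Vpreb3 held the octamer on the reverse strand, as ATTTGCAT starting 45 bases before the start, which 1.6% of 32851 promoter windows of that length also hold. That of Pigr held the E-box CACGTG starting 71 bases before the start, found in 6.02% of all windows. The Jchain window held none of them; the interferon core was found in 2.98%, the STAT core in 7.02% and the TATA box in 12.4% of all windows. These matches are a description of the letters only. In the GENCODE M21 annotation of the same assembly, Jchain lies at 88519809 to 88527891 on chromosome 5, Pigr at 130826684 to 130852249 on chromosome 1 and Vpreb3 at 75943057 to 75949657 on chromosome 10, so the annotated gene body of Vpreb3 starts before its printed window. Vpreb3 overlaps Gm16221, a pseudogene on the other strand, and the sources used here do not say whether counting used the strand, so reads of the pair cannot be told apart.

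Among the B cell genes, Vpreb3 fell in both PG groups and the antigen receptor genes did not pass the test in any comparison. VPREB3 is a protein of the endoplasmic reticulum that binds antibody chains during B cell development. Its level was 18.6, 25.3 and 23.3 CPM in the saline mice, 7.56, 11.2 and 5.31 CPM at PG 826 and 4.35, 6.42 and 6.68 CPM at PG 1100. Every PG mouse lay below every saline mouse. The difference from saline was -1.47 ± 0.27 (SE) at PG 826 (adjusted p = 0.0076) and -1.94 ± 0.28 at PG 1100 (adjusted p = 1.08e-05), that is 0.361 and 0.26 of the saline level. Both comparisons share the saline mice. At PG 1100 the call held under all 13 alternatives run (highest adjusted p 0.000567). At PG 826 it was lost without saline mouse 8 (adjusted p = 0.0923), without PG 826 mouse 22 (0.0587) or 25 (0.131), and with those 3 low-detection libraries left out (0.094).

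In the VEA arm Vpreb3 was lower in each dose group than in ethanol without passing the test. The ethanol mice had 17.2, 18.6 and 13.0 CPM, and the 9 VEA mice from 8.08 to 14.1 CPM. Only at VEA 6.25 did a treated mouse, at 14.1 CPM, lie above the lowest ethanol mouse. The differences were -0.46 (95% interval -1.0 to 0.09, adjusted p = 0.378), -0.54 (-1.09 to 0.01, adjusted p = 0.276) and -0.70 (-1.24 to -0.15, adjusted p = 0.0984) from the lowest to the highest dose. These 3 comparisons share the ethanol mice. In the order of group means, the ranges of neighbouring groups were apart only between VEA 3.12 at 11.8 ± 0.11 CPM (SD, n = 3) and ethanol at 16.3 ± 2.94 CPM, with saline highest at 22.4 ± 3.47 CPM.

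Cd79a and Cd79b encode the signalling pair of the B cell receptor. Cd79a was at 4.54, 5.60 and 4.67 CPM in saline mice, 6.14, 2.52 and 4.27 CPM at PG 826 and 2.80, 2.21 and 2.23 CPM at PG 1100. The PG 1100 mice lay below all saline mice and the PG 826 mice on both sides of them. The difference at PG 1100, -1.02 ± 0.44 (95% interval -1.91 to -0.14), did not pass the test (adjusted p = 0.167). Cd79b differed from saline by -0.32 at PG 1100 (-0.88 to 0.25, adjusted p = 0.595), with 11.8, 11.6 and 11.4 CPM against 12.2, 15.9 and 15.2 CPM. Its 3 PG 1100 mice lay just under the lowest saline mouse.

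Ms4a1, which encodes the B cell surface protein CD20, was at 5.92, 7.30 and 6.32 CPM in saline mice and 5.31, 5.20 and 2.56 CPM at PG 1100, groups that did not overlap, with a difference of -0.57 (-1.38 to 0.23, adjusted p = 0.468). It overlaps an antisense gene, 4930526L06Rik, so the same limit on strand applies. At VEA 12.5 the 3 genes were close to ethanol: the differences were -0.07 for Cd79a (-0.90 to 0.76), -0.08 for Cd79b (-0.63 to 0.48) and -0.10 for Ms4a1 (-0.88 to 0.67), with adjusted p of 0.95, 0.916 and 0.919. Those intervals allow a change of either sign. Over all 21 libraries the 3 genes ran from 2.21 to 8.94, from 7.12 to 19.5 and from 2.47 to 9.71 CPM, and neighbouring groups in the order of means overlapped in each.

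**Figure D1:**
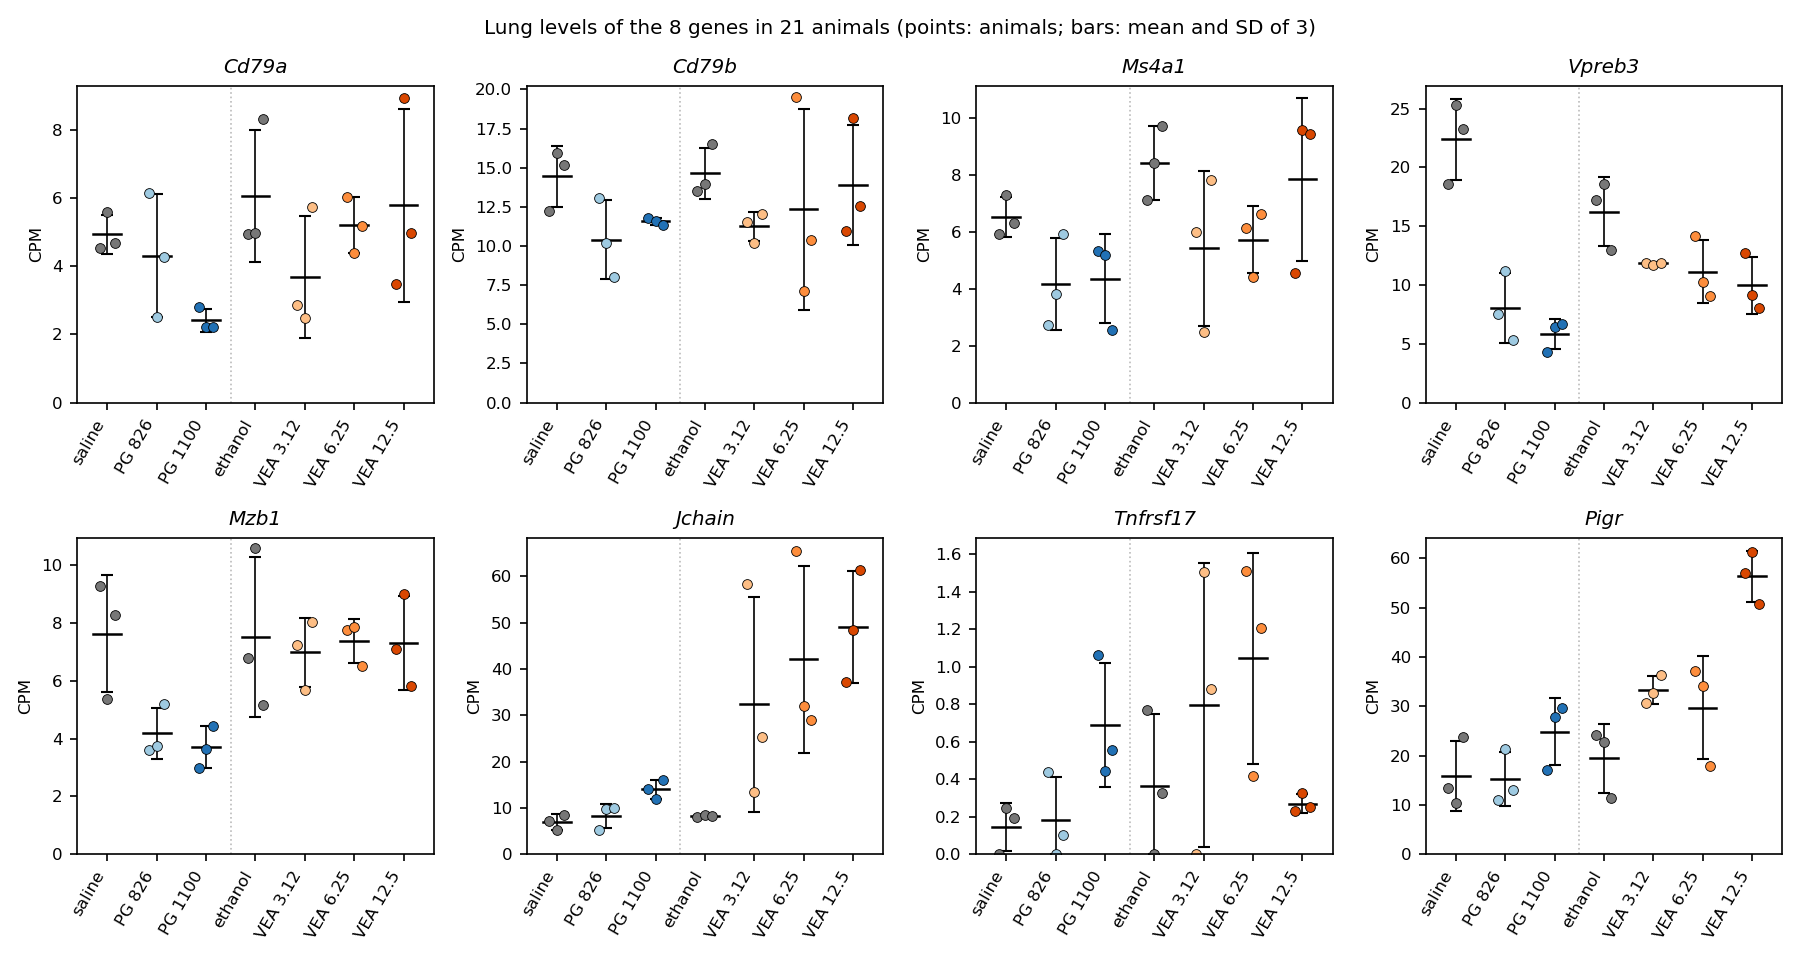
Level in CPM (vertical axes, linear, from 0) of the 8 genes in each of 21 mice, by group on the horizontal axes; points are mice, the long bar is the mean and the whiskers the SD of 3, stopped at 0. Vpreb3 is lower in all 6 PG mice than in the saline mice, Jchain is higher in all 9 VEA mice than in ethanol, and Pigr is highest in the 3 mice at VEA 12.5, at 50.8 to 61.2 CPM.

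Of the genes of antibody assembly, Jchain rose at every VEA dose. The ethanol mice had 8.01, 8.53 and 8.20 CPM. The VEA mice had 58.3, 13.4 and 25.3 CPM at 3.12, 65.4, 32.0 and 29.0 CPM at 6.25, and 37.2, 48.5 and 61.3 CPM at 12.5. All 9 treated mice lay above the 3 ethanol mice, whose SD was 0.262 CPM, while the treated groups spread over SDs of 12.1 to 23.3 CPM. Jchain was 3.93 times its ethanol level at VEA 3.12 (1.97 ± 0.44, adjusted p = 0.0133), 5.11 times at 6.25 (2.35 ± 0.44, adjusted p = 0.00424) and 5.93 times at 12.5 (2.57 ± 0.44, adjusted p = 0.00107).

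The calls at the upper doses held under all 13 alternatives each, with a highest adjusted p of 0.0438 at VEA 6.25 and 0.0131 at VEA 12.5. The Jchain call at VEA 3.12 held under 7 of 13. It was lost without any 1 of the ethanol mice 12, 13 or 14 (adjusted p = 0.0601, 0.0628 and 0.0563), with limma-voom (0.111), with only the groups compared in the fit (0.0662) and with those 3 low-detection libraries left out (0.0735). Mouse 56, at 58.3 CPM, set much of its size: without it the difference at VEA 3.12 was 1.22, with an adjusted p of 0.0312. The trend of Jchain over the VEA doses did not pass the test, at 0.06 ± 0.04 log2 units per dose unit (95% interval -0.03 to 0.15, adjusted p = 0.939).

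In PG the same gene was at 5.26, 9.74 and 9.89 CPM at 826 and 14.0, 12.0 and 16.0 CPM at 1100, against 7.10, 5.11 and 8.56 CPM in saline. All PG 1100 mice lay above all saline and PG 826 mice. The difference of Jchain between PG 1100 and saline was 1.01 ± 0.45 (95% interval 0.05 to 1.96) and did not pass the test (adjusted p = 0.221), nor did that between the PG doses (0.75 ± 0.44, adjusted p = 0.427). With no filter on low counts both passed (adjusted p = 0.000673 and 0.0267). In the order of means, saline at 6.93 ± 1.73, ethanol at 8.25 ± 0.26 and PG 826 at 8.30 ± 2.63 CPM overlapped, PG 1100 at 14.0 ± 2.04 CPM stood above them, and it overlapped VEA 3.12 at 32.3 ± 23.3 CPM (SD, n = 3 each).

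Mzb1 encodes a chaperone of the endoplasmic reticulum that helps B and plasma cells assemble antibody. It passed the test in no comparison. It was at 9.27, 5.36 and 8.27 CPM in saline mice, 3.62, 3.74 and 5.21 CPM at PG 826 and 3.0, 3.65 and 4.45 CPM at PG 1100. All 6 PG mice lay below all saline mice, the closest at 5.21 against 5.36 CPM. The difference was -0.87 ± 0.34 at PG 826 (adjusted p = 0.404) and -1.05 ± 0.35 at PG 1100 (95% interval -1.75 to -0.34, adjusted p = 0.0577), so neither passed. For PG 1100 it did pass with DESeq2 (adjusted p = 0.0275), without saline mouse 8 (0.0367) and with those 3 low-detection libraries left out (0.0277). At the VEA doses Mzb1 differed from ethanol by -0.11, -0.03 and -0.04, with 95% intervals of -0.79 to 0.58, -0.71 to 0.65 and -0.72 to 0.63, and the ethanol mice themselves spread over 5.18 to 10.6 CPM. Mzb1 overlaps a gene listed as SPATA24 on the same strand in GENCODE M21, and their reads may have been shared.

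Tnfrsf17 encodes BCMA, a survival receptor of plasma cells. It had 0, 2 and 2 counts in saline mice, 7, 0 and 3 in ethanol mice, 4, 0 and 1 at PG 826 and 11, 4 and 5 at PG 1100. The VEA mice had 0, 14 and 8 counts at 3.12, 14, 4 and 10 at 6.25, and 3, 4 and 3 at 12.5. Libraries at 0 numbered 4, and no difference passed the test at this depth. The 3 PG 1100 mice lay above all saline and PG 826 mice, with differences of 2.18 (95% interval -0.77 to 5.14, adjusted p = 0.449) and 1.92 (-0.95 to 4.80, adjusted p = 0.539). At VEA 12.5 the interval ran from -3.20 to 2.37 log2 units (adjusted p = 0.907).

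**Figure D2:**
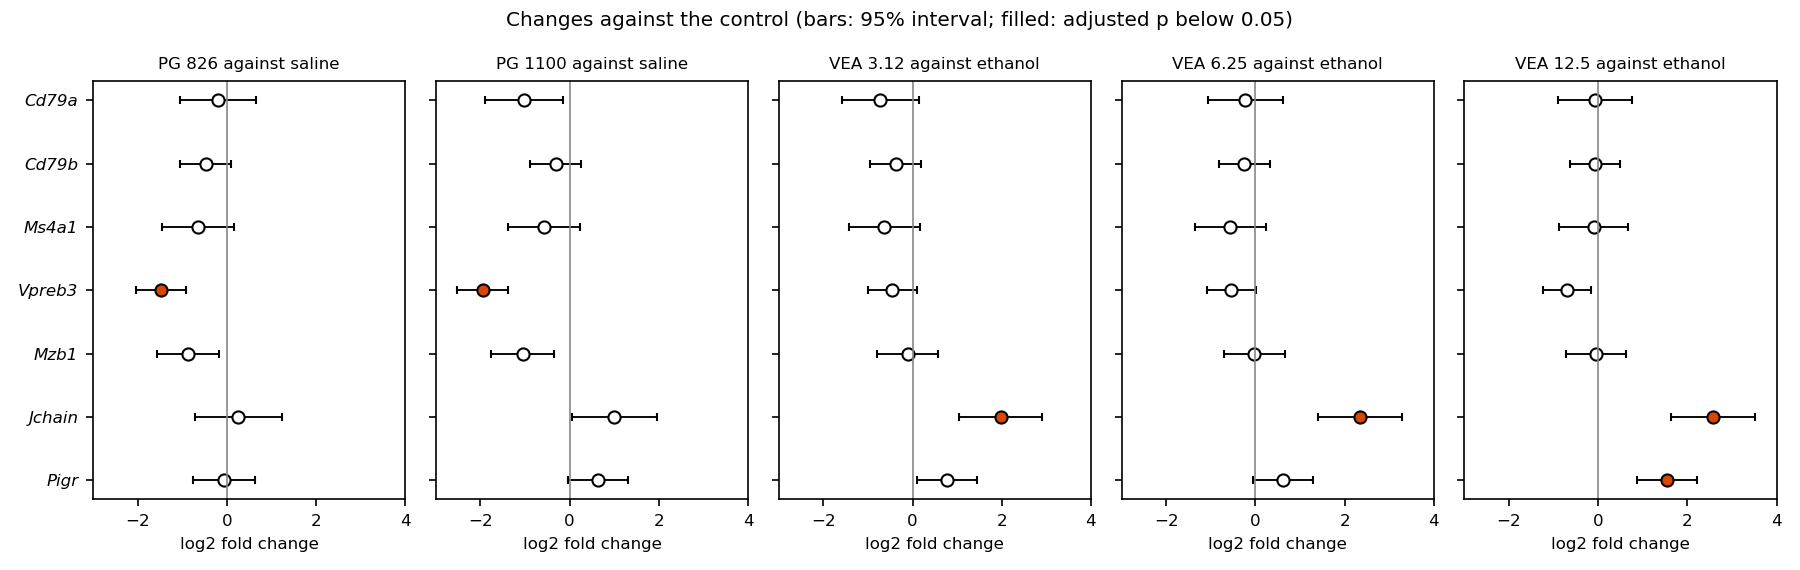
Log2 fold change against the control (horizontal axes; 0 means no difference) for 7 of the 8 genes, without Tnfrsf17 because of its low counts, in 5 comparisons; bars are 95% intervals and filled points passed the test. Filled points are Vpreb3 at both PG doses (-1.47 and -1.94), Jchain at the 3 VEA doses (1.97, 2.35 and 2.57) and Pigr at VEA 12.5 (1.53).

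On the epithelial side, Pigr rose at the highest VEA dose. The ethanol mice had 24.2, 22.8 and 11.4 CPM and the VEA 12.5 mice 57.1, 61.2 and 50.8 CPM. The groups were far apart, and Pigr was 2.90 times its ethanol level (1.53 ± 0.32, adjusted p = 0.00332). That call held under all 13 alternatives (highest adjusted p 0.0145, without ethanol mouse 14, where the difference was 1.26). At VEA 3.12 the mice had 30.6, 32.8 and 36.4 CPM, all above ethanol, with a difference of 0.77 ± 0.32 that did not pass (95% interval 0.10 to 1.44, adjusted p = 0.186), though it passed with only the groups compared in the fit (0.0401) and with no filter on low counts (0.0051). At VEA 6.25 they had 37.1, 34.1 and 17.8 CPM and overlapped ethanol (0.61, -0.06 to 1.29, adjusted p = 0.325, and 0.0481 with no filter).

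Over the 3 VEA doses alone, the slope of Pigr was 0.09 ± 0.03 log2 units per dose unit, with an unadjusted p of 0.0106 and an adjusted p of 0.605. It passed with only the groups compared in the fit (adjusted p = 0.0389) and with no filter (0.00409). In PG, Pigr was at 11.1, 21.4 and 13.0 CPM at 826 and 17.0, 27.8 and 29.7 CPM at 1100, against 13.3, 10.5 and 23.8 CPM in saline. These groups overlapped, and the difference at PG 1100 was 0.64 (-0.04 to 1.32, adjusted p = 0.291, and 0.034 with no filter). In the order of group means from PG 826 at 15.2 ± 5.49 CPM upward, all neighbours overlapped up to VEA 3.12 at 33.3 ± 2.91 CPM, and VEA 12.5 at 56.4 ± 5.21 CPM stood apart (SD, n = 3 each).

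**Figure D3:**
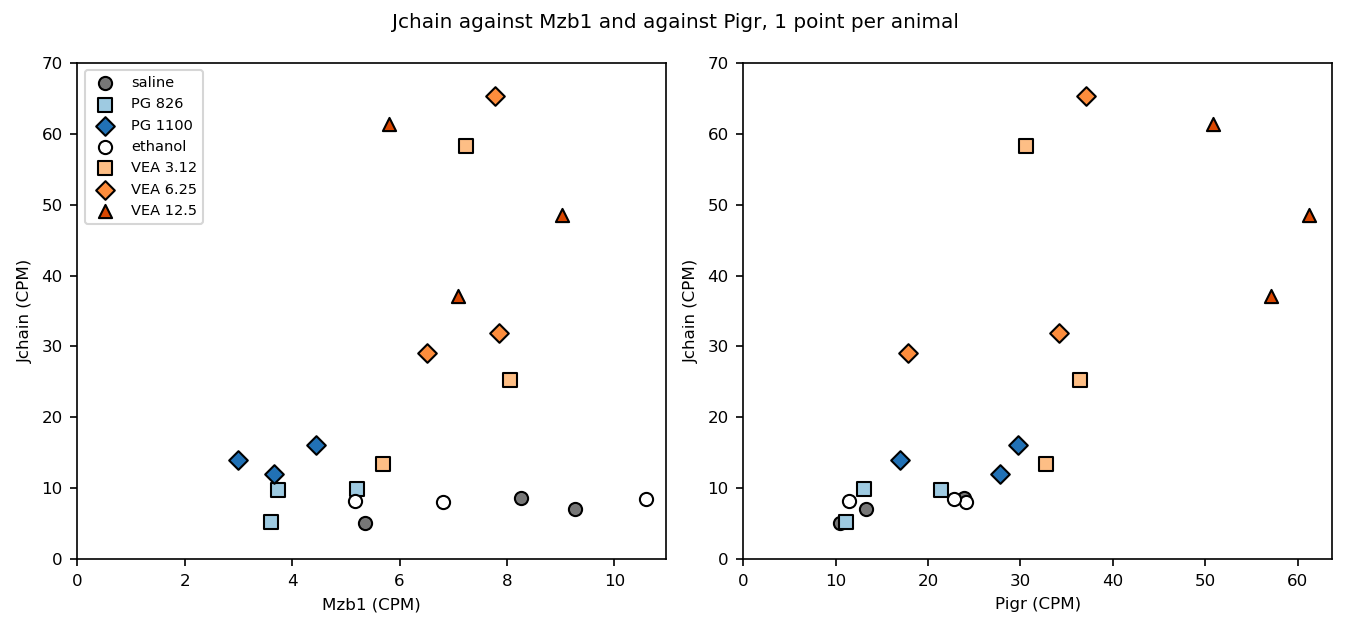
Jchain level (vertical axes, CPM) against Mzb1 (left) and Pigr (right) in CPM, 1 point per mouse, with symbols for the 7 groups. The 9 VEA mice are at 13.4 to 65.4 CPM of Jchain with Mzb1 at 5.70 to 9.02 CPM, inside the 5.18 to 10.6 CPM of the ethanol mice, while the 3 mice at VEA 12.5 have Pigr at 50.8 to 61.2 CPM, above all other mice.

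Counted over the 8 genes, 1 fell at PG 826, where 0.0407% of all genes tested fell, and 1 fell at PG 1100, where 3.23% did. At VEA 3.12 and 6.25, 1 of 8 rose in each, beside 3.42% and 3.51% of all genes, and at VEA 12.5 2 of 8 rose, beside 5.48%. At PG 1100, 5 of 8 genes were lower than saline without overlap (9.69% of all genes) and 2 were higher without overlap (10.1%). At PG 826, 2 of 8 were lower without overlap (6.67% of all genes). In VEA the groups did not overlap for 4 of 8 genes at 3.12 (24.7% of all genes), 2 of 8 at 6.25 (23.5%) and 3 of 8 at 12.5 (30.1%), in either direction. The median difference over the 8 genes was -0.45 at PG 1100 and -0.07 at VEA 12.5, where that over all genes was 0.01 and -0.01. In bulk lung RNA, fewer cells of a type and less RNA per cell cannot be told apart.

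Between the PG doses and between the controls none of the 8 genes passed with edgeR, DESeq2 or limma-voom. With no filter on low counts, Jchain and Pigr passed between the PG doses (adjusted p = 0.0267 and 0.018). PG 1100 against PG 826 had 1 gene at an unadjusted p below 0.05 (Pigr, 0.70 ± 0.33, adjusted p = 0.262), with 5.55% of all genes called and 17.8% at that threshold. Ethanol against saline had none, with 0% of all genes called and 6.06% at that unadjusted threshold; Vpreb3 differed by -0.46 (95% interval -1.0 to 0.08, adjusted p = 0.881). The trend over VEA doses called no gene among all those tested (0% adjusted, 6.23% unadjusted), Pigr being the 1 of the 8 at an unadjusted p below 0.05.

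Whether the highest VEA and PG doses acted differently was tested as the VEA 12.5 difference from ethanol minus the PG 1100 difference from saline. None of the 8 genes passed with edgeR, DESeq2 or limma-voom (0.19% of all genes did with edgeR), and 3 had an unadjusted p below 0.05, as did 7.89% of all genes. Vpreb3 differed by 1.25 ± 0.39 (adjusted p = 0.236), Jchain by 1.56 ± 0.63 (adjusted p = 0.502, and 0.000448 with no filter on low counts) and Mzb1 by 1.01 ± 0.48 (adjusted p = 0.611). For Pigr the value was 0.90 (95% interval -0.05 to 1.85, adjusted p = 0.667). The fall of Vpreb3 in PG and the rises of Jchain and Pigr in VEA are therefore not shown to be particular to either agent.

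Other genes of B cell identity and receptor signalling were read from a list with 31 genes tested. At PG 826 none was called with edgeR. At PG 1100, 2 fell and none rose, with a list median of -0.24, where 3.23% of all genes fell and 4.09% rose. Bank1, an adaptor of B cell receptor signalling, fell by 1.48 on the log2 scale (adjusted p = 0.0484), from 6.11 ± 2.87 to 2.17 ± 0.26 CPM (SD, n = 3). Bank1 was called under 5 of 13 alternatives and lost, among others, without saline mouse 8 or 10 or any 1 PG 1100 mouse (adjusted p up to 0.266).

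At VEA 12.5, 6 genes of that list rose and 1 fell, with a median of 0.28, where 5.48% of all genes rose and 4.23% fell. The risers with the smallest adjusted p were Cd83, an activation marker shared with dendritic cells, Cd72, an inhibitory co-receptor, Fcer2a, the low-affinity IgE receptor, and Btk, a kinase downstream of the antigen receptor. None of these is made by B cells alone, and Cd83, Cd72 and Btk are also made by myeloid cells. Cd83 was at 6.59, 8.42 and 7.01 CPM in ethanol mice and 21.1, 21.4 and 19.4 CPM at VEA 12.5 (1.49 ± 0.29, adjusted p = 0.00055), and it rose at VEA 3.12 and 6.25 too, each call holding under all 13 alternatives. Fcer2a was at 1.76, 2.27 and 3.45 CPM in ethanol mice and 10.2, 7.88 and 11.2 CPM at VEA 12.5 (1.96 ± 0.50, adjusted p = 0.00752). Cd72 rose by 0.87 ± 0.20 (adjusted p = 0.00346). Btk rose by 1.55 ± 0.41 (adjusted p = 0.0099), a call lost without ethanol mouse 12 (0.0562) or VEA 12.5 mouse 68 (0.0701).

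The 1 gene of the list that fell at VEA 12.5, named after its value was seen, was Ebf1, a transcription factor of early B cells that stromal cells also make (-0.75 ± 0.24, adjusted p = 0.036). It held under 6 of 13 alternatives and was lost when any 1 ethanol or VEA 12.5 mouse was left out (adjusted p up to 0.151). At VEA 3.12, 4 of 31 rose (Cd83, Fcer2a, Pik3ap1 and H2-Ob), and at VEA 6.25, 2 did (Cd83 and H2-Ob), beside the 3.42% and 3.51% of all genes given above. At VEA 3.12 the Fcer2a call was lost without ethanol mouse 12 or 13 (adjusted p up to 0.073), the Pik3ap1 call without ethanol mouse 12 or 14 or any treated mouse (up to 0.177) and the H2-Ob call without ethanol mouse 12 or 13 or any treated mouse (up to 0.222). The H2-Ob call at VEA 6.25 was lost without ethanol mouse 12 or 13 or VEA 6.25 mouse 63 or 64 (up to 0.151). Of 6 genes of precursor B cells 2 had enough counts to be tested, and neither was called with edgeR; Vpreb1 had 0 to 15 counts per library.

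**Figure D4:**
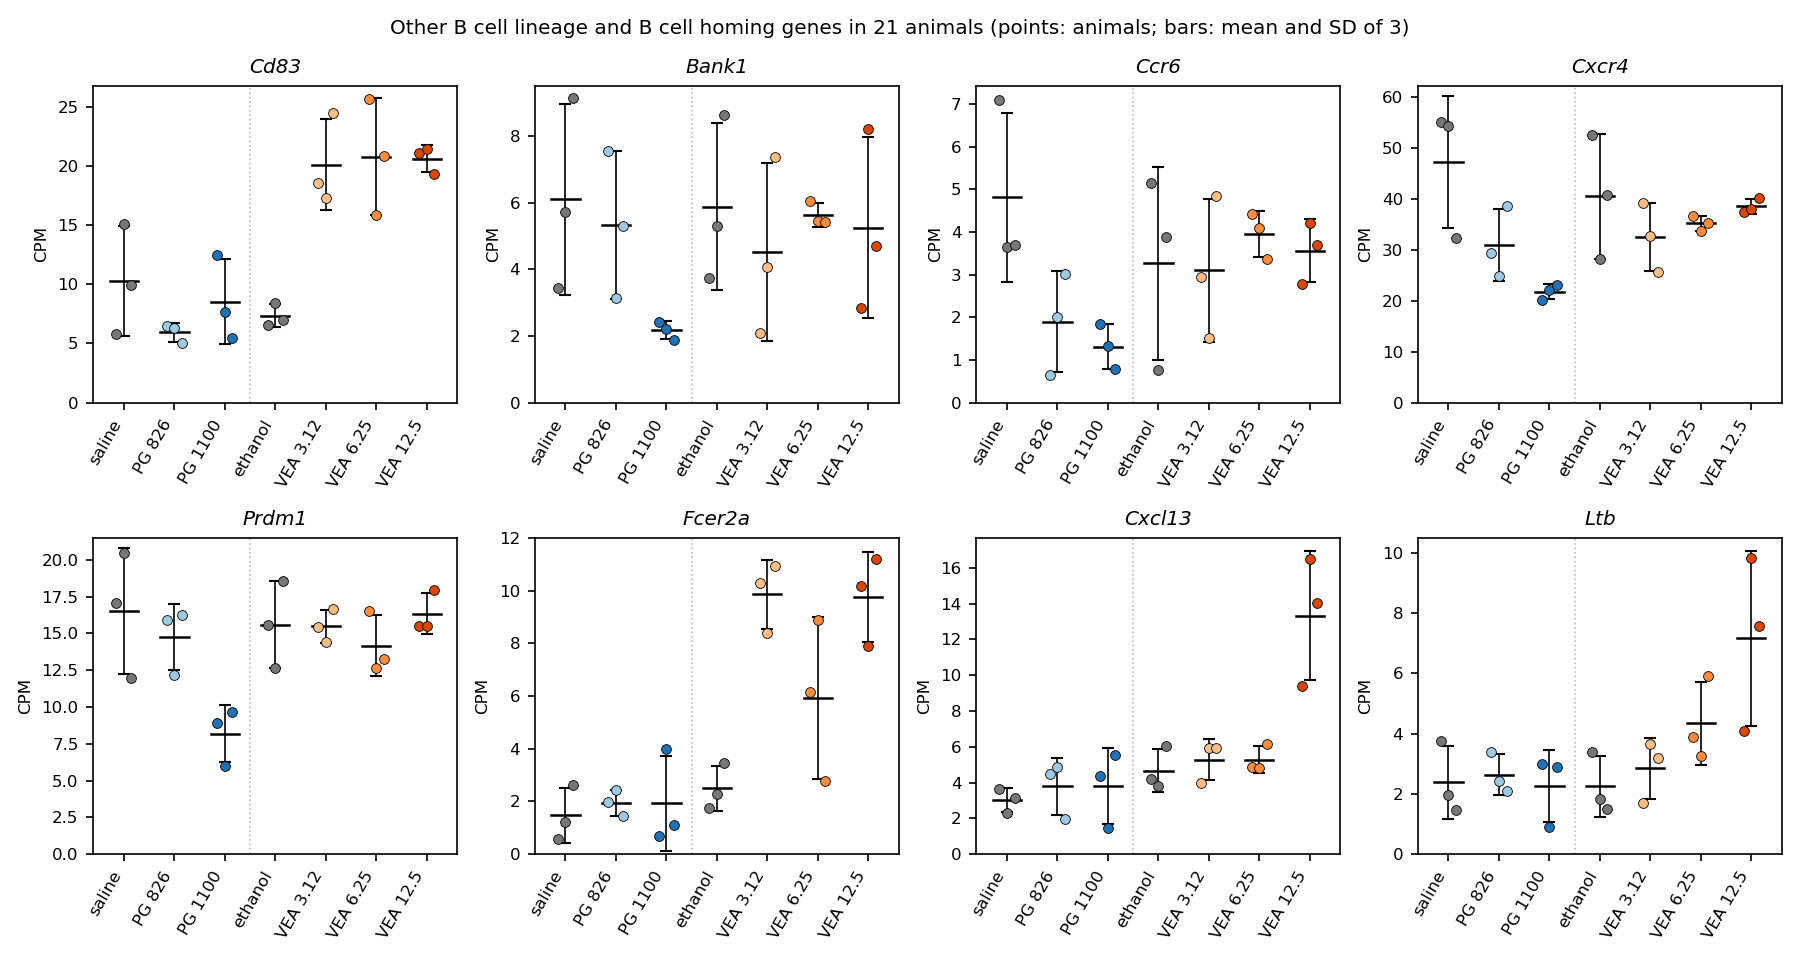
Level in CPM (vertical axes, linear, from 0) of 8 genes of the B cell, plasma cell and homing lists by group, drawn because each passed the test in at least 1 comparison; points are mice, bars the mean and SD of 3. Bank1, Ccr6, Cxcr4 and Prdm1 have their lowest mean at PG 1100, and Cxcl13 and Ltb their highest at VEA 12.5, at 13.3 ± 3.6 CPM for Cxcl13.

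Of 17 plasma cell genes tested, 1 rose and 1 fell at PG 1100, where 4.09% of all genes rose and 3.23% fell. At VEA 3.12 and 12.5, 1 of 17 rose in each, beside 3.42% and 5.48% of all genes. At PG 1100, Sdc1, the plasma cell surface proteoglycan CD138 that epithelium also carries, rose by 0.59 ± 0.13 (adjusted p = 0.00329). Prdm1, the transcription factor that drives plasma cell differentiation, fell by 1.01 on the log2 scale (adjusted p = 0.00721), from 17.1, 20.5 and 12.0 CPM in saline to 8.89, 5.98 and 9.69 CPM, a call lost without saline mouse 8 (0.0593), without PG 1100 mouse 28 (0.0856), with only the groups compared in the fit (0.0776) and with those 3 low-detection libraries left out (0.0518). The Sdc1 call was lost with only the groups compared in the fit (adjusted p = 0.0693). At VEA 3.12 and 12.5, Slamf7, a surface receptor of plasma cells, natural killer cells and macrophages, was the 1 gene called (1.77 and 1.67), and it was lost in both without ethanol mouse 13 or 14, with limma-voom, or without 1 treated mouse, 59 or 68 (adjusted p up to 0.107). None of the 17 was called at VEA 6.25 with edgeR, where 3.51% of all genes rose and 2.25% fell. The part of plasma cells in the rise of Jchain was not tested.

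The list of germinal centre genes, 6 tested, had Bcl2a1a, a survival gene with near-identical copies that counting could split, higher at each VEA dose (1.64, 1.61 and 1.62). Fas, a death receptor, rose at 3.12 (0.82) and 12.5 (0.65), and both calls were lost without ethanol mouse 13 (adjusted p up to 0.141) and that at 12.5 also without VEA 12.5 mouse 68 or 70 (0.0595 and 0.0723). In PG none of the 6 was called with edgeR.

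Among 13 tested genes of B cell homing and survival was Cxcr4, a chemokine receptor that holds B and plasma cells in tissue and that other cells also carry. Cxcr4 fell at PG 1100 from 55.1, 54.3 and 32.3 CPM in saline to 20.2, 22.0 and 23.2 CPM (-1.11 ± 0.21, adjusted p = 0.000394), under all 13 alternatives. Ccr6, a receptor for the mucosal chemokine CCL20, fell by 1.86 on the log2 scale (adjusted p = 0.0496), a call lost without any 1 saline or PG 1100 mouse (adjusted p up to 0.204). Chemokines that rose there were Ccl21a (1.06 ± 0.16, adjusted p = 1.54e-05), which has near-identical copies, and Cxcl12, the ligand of CXCR4 (0.89 ± 0.24, adjusted p = 0.0262). The Cxcl12 groups overlapped, and its call was lost without saline mouse 8 or 10 or PG 1100 mouse 27 or 28 (adjusted p up to 0.143).

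In VEA, Tnfsf13, which encodes APRIL, a ligand of BCMA, rose at each dose (0.55, 0.51 and 0.58). Its calls were lost without single mice, at 3.12 without ethanol mouse 12 or 13 or any treated mouse, at 6.25 without any ethanol mouse or VEA 6.25 mouse 64 or 65, and at 12.5 without ethanol mouse 12 (adjusted p up to 0.131, 0.18 and 0.0751). At VEA 12.5, Cxcl13, the chemokine that draws B cells into follicles, was at 9.41, 16.5 and 14.1 CPM against 4.17, 3.78 and 6.04 CPM in ethanol (1.51 ± 0.40, adjusted p = 0.0104), a call lost without ethanol mouse 13 (0.0585) or VEA 12.5 mouse 68 (0.0677). Ltb, a cytokine of lymphoid tissue, rose by 1.67 ± 0.51 (adjusted p = 0.0313), a call lost without ethanol mouse 13 or 14 or VEA 12.5 mouse 68 or 70 (adjusted p up to 0.175).

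Beside these results, 0 of 11 T cell markers were called with edgeR at PG 1100, VEA 6.25 or VEA 12.5, with medians of -0.01, 0.26 and 0.46. At VEA 3.12, 1 was, Cd2 (0.63, adjusted p = 0.0279), a call lost without ethanol mouse 13 or 14 or VEA 3.12 mouse 56 or 59 (adjusted p up to 0.178). Their summed level was 58.2 to 66.1 CPM in saline, 56.6 to 72.2 at PG 1100, 53.1 to 74.6 in ethanol and 66.4 to 109 at VEA 12.5, none being at 0 in a whole group. Red blood cell genes fell with Vpreb3 at PG 1100, 5 of 5 of them, where 3.23% of all genes fell. Their summed level there was 33618 to 38867 CPM against 48132 to 121010 CPM in saline. At PG 826, where 0.0407% of all genes fell, Vpreb3 among them, 0 of 5 were called with edgeR. The list was lower there too, with a median of -0.61 against -1.15 at PG 1100 and a summed level of 37180 to 67296 CPM. The same 5 fell at VEA 12.5 (27217 to 35215 against 66739 to 83662 CPM in ethanol), where 4.23% of all genes fell. At PG 1100 the call of Hba-a1 held under all 12 alternatives run. That of Hbb-bs was lost without PG 1100 mouse 28 (adjusted p = 0.0653) and that of Alas2 without saline mouse 8 or PG 1100 mouse 28 or 30 (up to 0.106). The calls of Hba-a2 and Hbb-bt held under 6 and 5 of 12 alternatives, lost among others without saline mouse 8 or any 1 PG 1100 mouse (up to 0.0824 and 0.119). None of these markers was at 0 in a whole group. Of 4 neutrophil markers none was called with edgeR at PG 1100 or any VEA dose, with a sum of 211 to 425 CPM in ethanol and 303 to 438 CPM at VEA 12.5. The part of these cells in the results was not tested.

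For Pigr, a list of 20 tested genes covered cytokines and transcription factors known to induce it and the machinery of epithelial transport. At VEA 12.5, 4 rose and none fell, where 5.48% of all genes rose and 4.23% fell. The list median was 0.07, where that over all genes was -0.01. Tnf, which encodes the cytokine TNF, had 1 count in all ethanol mice together and 20, 77 and 79 counts at VEA 12.5 (adjusted p = 0.00103). It had 58 and 45 counts in all at VEA 3.12 and 6.25. The ethanol control was low beside saline, where Tnf had 17 counts in all, with 20 at PG 826 and 2 at PG 1100. Relb, a subunit of NF-kB, rose at each VEA dose (0.95, 1.00 and 1.11), with 24.8, 11.4 and 16.4 CPM in ethanol mice and 32.2, 49.9 and 31.3 CPM at VEA 12.5. Il4ra, a subunit of the IL-4 receptor, rose by 0.53 ± 0.13 (adjusted p = 0.00783), lost without ethanol mouse 12 (0.0588). Il1b, which encodes interleukin-1 beta, rose by 1.66 ± 0.40 (adjusted p = 0.0112), lost without ethanol mouse 12 or 14 or VEA 12.5 mouse 70 (0.0582, 0.0574 and 0.0504).

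The Tnf and Relb calls at VEA 12.5 held under all 13 alternatives. At the lower doses they did not: Tnf held under 7 of the 12 alternatives in which it could be tested at VEA 3.12 and 6 of 11 at 6.25, lost without ethanol mouse 12 or 13 and without mouse 59 or 64, and Relb held under 9 and 8 of 13 alternatives, lost without ethanol mouse 13, and at VEA 3.12 without ethanol mouse 14 or mouse 56, and at 6.25 without mouse 64 or 65 (adjusted p up to 0.157, 0.23, 0.125 and 0.297). Irf1, a transcription factor that activates Pigr, fell at VEA 6.25 (-0.55, adjusted p = 0.0228), where 2.25% of all genes fell, a call lost without ethanol mouse 12 or 13 or any treated mouse (adjusted p up to 0.213). The transport genes of the list, such as those of the RAB proteins that move vesicles, gave no call at VEA 12.5. At PG 1100, Irf1 fell by 0.57 on the log2 scale and Il4ra rose by 0.45, the first lost without PG 1100 mouse 27 or 28 (0.0612 and 0.0965) and the second without saline mouse 8 or 10 or PG 1100 mouse 27 or 30 (adjusted p up to 0.178).

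A list drawn up for other receptors of IgA and IgM had 3 genes tested. Lgals3 in it encodes a galactose-binding lectin abundant in macrophages rather than such a receptor. Lgals3 rose at PG 1100 (1.05 ± 0.15) and at each VEA dose (1.26, 1.08 and 1.34), under all alternatives. Fcgrt, the neonatal Fc receptor, which carries IgG rather than IgA, fell at VEA 3.12 and 6.25 (-0.52 and -0.56, adjusted p = 0.0411 and 0.0266). Those calls were lost at 3.12 without any 1 ethanol or treated mouse and at 6.25 without ethanol mouse 13 or VEA 6.25 mouse 64 or 65 (adjusted p up to 0.236 and 0.459).

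Of 9 genes of airway secretory cells, which carry Pigr in the bronchi, 1 rose and 2 fell at VEA 3.12 and at VEA 6.25. Of all genes, 3.42% and 3.51% rose there and 2.09% and 2.25% fell. At VEA 12.5, 2 of 9 rose (Lcn2 and the mucin gene Muc5b) and 3 fell (Scgb1a1, Cyp2f2 and Scgb3a2), beside 5.48% and 4.23% of all genes. Their summed level was 28515 to 30397 CPM against 50104 to 71509 CPM in ethanol, with none at 0 in a whole group. Most of that sum is Scgb1a1, the club cell secretory protein, which fell by 1.14 on the log2 scale (adjusted p = 1.99e-06) and differed by -1.01 and -0.96 at VEA 3.12 and 6.25, where it fell too (as did 2.09% of all genes at VEA 3.12). Lcn2, an antimicrobial protein that binds iron carriers, rose by 3.85 ± 0.47 at VEA 12.5. At VEA 3.12 and 6.25 Lcn2 rose (3.18 and 2.78) and Cyp2f2 fell (-1.24 at both). The Muc5b call was lost without ethanol mouse 13 or 14 or VEA 12.5 mouse 66 or 68 (adjusted p up to 0.16), and that of Scgb3a2 without ethanol mouse 12 or 13 or any VEA 12.5 mouse (up to 0.086). General epithelial markers gave 1 call of 7 at VEA 12.5, Cldn4, higher, a call lost without any 1 ethanol mouse or VEA 12.5 mouse 68 or 70 (adjusted p up to 0.109). At PG 1100 the airway list had 1 higher (Lcn2) and 2 lower (Scgb1a1 and Cyp2f2) of 9, beside 4.09% and 3.23% of all genes. Its summed level there was 23490 to 34023 CPM, against 51958 to 71597 CPM in saline.

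Of 5 goblet cell markers tested, 2 rose and none fell at each VEA dose, Slc26a4 and Clca1. Of all genes, 3.42%, 3.51% and 5.48% rose at the rising VEA doses. Slc26a4, an anion exchanger, was at 1.32, 0.864 and 0.324 CPM in ethanol mice and 56.3, 35.7 and 45.4 CPM at VEA 12.5 (5.76 ± 0.39, adjusted p = 4.79e-12). It rose at VEA 3.12 and 6.25 by 5.31 and 4.93, and the call at each dose held under all 13 alternatives. Clca1, a secreted protein of mucous cells, was at 2.20, 5.83 and 1.08 CPM in ethanol mice and 111, 96.4 and 145 CPM at VEA 12.5 (5.27 ± 0.70, adjusted p = 0.00018). It rose at VEA 3.12 and 6.25 too (4.06 and 4.96), the first call being lost with limma-voom and with only the groups compared (adjusted p up to 0.0984). All 9 VEA mice lay above all ethanol mice for both genes. The summed level of the list was 9.82 to 33.6 CPM in ethanol and 72.9 to 148, 139 to 157 and 160 to 216 CPM at the rising VEA doses, with Muc5ac at 0 in all saline, ethanol and PG 1100 mice. Most of the sum at VEA 12.5 was Clca1 and Slc26a4, with means of 118 and 45.8 CPM. At PG 1100, 2 of 5 rose and 1 fell, where 4.09% of all genes rose and 3.23% fell. Slc26a4 (2.98) and Agr2, a chaperone of mucous cells (3.16), rose and Tff2, a trefoil peptide of mucous secretions, fell (-1.58). The sum was 30.6 to 36.3 CPM against 16.6 to 21.6 CPM in saline. The Tff2 call at PG 1100 was lost without PG 1100 mouse 28 (adjusted p = 0.0718). Tff2 fell at PG 826 too (-2.46, adjusted p = 0.0031), where 0.0407% of all genes fell. The part of airway and goblet cells in the levels of Pigr and Jchain was not tested.

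Genes whose levels ran most like those of Pigr, Jchain, Cd79a and Vpreb3 were ranked by Pearson's r of log2 CPM over the 21 libraries among 10597 or 10598 genes averaging 5 CPM or more. The libraries share groups and treatments, so r is a description and has no p. For Pigr the first was Cd14, a receptor for bacterial lipopolysaccharide, at r = 0.94 (Spearman's rho 0.95; r = 0.92 without the 2 libraries farthest from the median of Pigr), ahead of AI662270 (0.87), Chil1 (0.86), Aim2 (0.86) and C1qb (0.85). For Jchain they were the complement gene C1qa (r = 0.90, rho 0.93, and 0.90 without the 2 farthest), Gdf15 (0.90) and the genes of MHC class II antigen presentation H2-Ab1, H2-Eb1 and Cd74 (0.89 each).

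Cd79a and Vpreb3 had looser neighbours. Among the nearest to Cd79a were Ly6d, a surface protein of B lineage cells (r = 0.76, rho 0.78, and 0.73 without the 2 farthest), Hs3st1 (0.73), C2cd2 (0.69) and Dact1 (0.68). For Vpreb3 they were Lonrf3 (r = 0.81, rho 0.84, and 0.83 without the 2 farthest), Asgr1 (0.79), Tnfsf10 (0.77), Stk4 (0.75) and Pde4dip (0.75). None of the plasma cell genes listed above was among the 5 nearest to Jchain, and none of the B cell genes listed was among the 5 nearest to Vpreb3.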

How the data were processed

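Lung RNA of 21 mice was sequenced as 3′-end libraries. The files deposited by the authors hold whole-number counts per gene symbol, 1 file per library; per the submitters' processing notes Bowtie2, bedtools and the mm10 build were used, with no versions, and the annotation and strand setting are not given in the sources used here. Counts of 35 symbols on more than 1 row were summed. In R 4.3.3, genes were filtered by group (filterByExpr), scaled by TMM and fitted in edgeR 4.0.16 (quasi-likelihood, robust, 1 mean per group over all 21 libraries, 14 residual degrees of freedom), with Benjamini-Hochberg adjustment over 14727 genes in each of 9 comparisons; code was tested on simulated data. SE is the fold change divided by the root of F. CPM values use TMM library sizes, and likeness uses log2 CPM with a prior count of 2. Replicates of a group differed by 8.43 to 43.0 times counting error (chi-square per degree of freedom), so none was a duplicate. Rn45s took 14.6 to 26.1% of counts.

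All 8 members are reported in every comparison, and up to 4 called genes per list, smallest adjusted p first. Results of some list genes are not reported here. The members and lists were chosen with earlier results of these data known. Alternatives were RLE scaling, DESeq2 1.42.0, limma-voom (limma 3.58.1), no filter, only the groups compared, no Rn45s or haemoglobin, each mouse left out, and, added after seeing the data, 3 low-detection libraries left out. Coordinates come from GENCODE M21 (GRCm38) and promoter sequences from RefSeq (GRCm38.p6).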

Additional observations from a re-analysis of the deposited data

How the results depend on the processing

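Of the 6 calls among the 8 genes, 4 were kept under all 13 alternatives each (Vpreb3 at PG 1100, Jchain at VEA 6.25 and 12.5, Pigr at VEA 12.5), and 2 were lost under some (Vpreb3 at PG 826, Jchain at VEA 3.12); none changed sign. Of 66 results without a call, 9 gained one somewhere and 18 changed sign somewhere. No low-count filter called 2 of 8 genes for PG 1100 against PG 826, 3 for PG 1100 against saline, 2 each for VEA 3.12 and 6.25, and 1 each for the VEA trend and for VEA 12.5 minus PG 1100; the cause was not tested. DESeq2 called 2 for PG 1100 against saline. Limma-voom called 0 at VEA 3.12. Fitting only the groups compared called 1 in the VEA trend. Without the 3 low-detection libraries, a setting chosen after seeing the data, 2 genes were called for PG 1100 against saline, 0 for PG 826 and 0 for VEA 3.12. With 1 mouse left out, the counts ran from 1 to 2 for PG 1100 against saline (2 without saline mouse 8), from 0 to 1 for PG 826 and from 0 to 1 for VEA 3.12. RLE scaling and leaving out Rn45s and haemoglobin changed no count. Of 118 called results in the gene lists, 49 were kept under every alternative, 69 were lost under at least 1, and none changed sign. Over all genes, the counts that moved by over 1.5 times, apart from leaving out 1 mouse, were 20 for PG 826 against 78 with DESeq2, 162 with no filter and 6 without the 3 low-detection libraries; 1077 for PG 1100 and 818 between the PG doses against 444 and 425 with only the groups compared; and 812 for VEA 3.12 and 849 for VEA 6.25 against 539 and 316 without those libraries. The VEA trend had 0 genes against 18 with DESeq2, 6 with limma-voom, 84 with no filter and 34 with only the groups compared. Ethanol against saline had 0 against 1 with DESeq2 and 17 with no filter. VEA 12.5 minus PG 1100 had 28 against 103 with DESeq2, 8 with limma-voom, 198 with no filter, 14 with only the groups compared and 12 without those libraries. With 1 mouse left out, the counts ran from 5 (saline mouse 8) to 120 (saline mouse 6) for PG 826, 547 (PG 1100 mouse 28) to 1207 for PG 1100, 259 (mouse 28) to 1458 (mouse 27) between the PG doses, 434 (mouse 56) to 621 for VEA 3.12, 427 (mouse 64) to 811 for VEA 6.25, 873 (mouse 70) to 1090 for VEA 12.5, 0 to 13 (mouse 66) for the trend, 0 to 2 for the controls and 12 (ethanol mouse 13) to 48 (saline mouse 6) for VEA 12.5 minus PG 1100. Leaving out the 3 low-detection libraries also ended list calls named in the report: at PG 1100 Bank1, Prdm1, Cxcl12, Il4ra, Hba-a2 and Hbb-bt, at VEA 3.12 Cd2, Fas, Fcgrt, H2-Ob, Relb and Tnf, at VEA 6.25 Fcgrt, Irf1, Relb, Tnf and Tnfsf13, and at VEA 12.5 Cldn4, Ebf1, Fas, Ltb, Muc5b and Scgb3a2 (adjusted p from 0.0501 for Fas to 0.459 for Fcgrt). No paired analysis was possible because each mouse number occurs in 1 group only.

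The log2 fold changes that changed sign, all of them without a call, follow. Without the 3 low-detection libraries, Mzb1 was at 0.22, 0.38 and 0.29 at VEA 3.12, 6.25 and 12.5 and Pigr at -0.061 for ethanol against saline. With limma-voom, Mzb1 was at 0.037 at VEA 6.25, and Tnfrsf17 at -0.0872 at PG 826 and 0.27 at VEA 12.5. With 1 mouse left out, Cd79a ran from -0.54 to 0.079 at PG 826, -0.35 to 0.072 at VEA 6.25 and -0.51 to 0.22 at VEA 12.5. Cd79b ran from -0.75 to 0.032 at VEA 6.25, -0.30 to 0.078 at VEA 12.5 and -0.086 to 0.096 for ethanol against saline. Ms4a1 ran from -0.16 to 0.40 between the PG doses and -0.26 to 0.18 at VEA 12.5. Mzb1 ran from -0.33 to 0.0048 between the PG doses, -0.31 to 0.22, -0.24 to 0.30 and -0.25 to 0.29 at the rising VEA doses, -0.014 to 0.022 for the trend and -0.35 to 0.18 for ethanol against saline. Pigr ran from -0.40 to 0.35 at PG 826. Tnfrsf17, with 0 to 14 counts per library, ran from -1.34 to 0.86 at PG 826 and -0.98 to 0.69 at VEA 12.5. Depth limits Tnfrsf17 most.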
